A study of Mus musculus with 87 samples.

Results

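A set of 10 genes that mark blood vessel endothelium and endocardium was followed through 64 RNA-seq libraries of mouse embryos carrying, or not carrying, a deleted boundary between topologically associating domains (TADs). The genes were chosen by symbol and are Pecam1, Cdh5, Kdr, Flt1, Tie1, Tek, Erg, Emcn, Nfatc1 and Npr3. These are 10 of the 43346 Ensembl genes in each table. All 10 had counts in every library and passed the filter on low counts in every comparison.

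Endothelial cells line every blood vessel, and the endocardium is the endothelium that lines the chambers of the heart. Vascular endothelial growth factors (VEGFs) act on endothelial cells through receptor tyrosine kinases, and angiopoietins act through a second family, the Tie receptors. Cell-cell adhesion proteins hold the lining together, and transcription factors of the ETS family maintain its identity. In the embryonic heart, endocardial cells also contribute to the cushions from which the valves form.

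The embryos were FVB mice at embryonic day 11.5. Each of 7 lines, B2 to B8, carried the CRISPR/Cas9 deletion of a single TAD boundary from 1 founder line per locus, and homozygous embryos were set against wild-type embryos. From B2 came 8 hearts, 4 of each genotype, and 12 lungs of both sexes, 6 of each genotype. There were 2 homozygous and 2 wild-type samples each of face and heart for B3 and B5, gut and midbrain for B4, face for B6 and B7, and forebrain and neural tube for B8. B6 and B7 each gave 2 homozygous hearts, and these were compared with 8 wild-type hearts from other lines (B2, B3, B5). In those 2 comparisons genotype and line cannot be told apart, and the controls are shared. Samples are named by their code in the labels. Nothing in the sources used here says which tissues came from the same embryo outside the lungs, and p-values measure the spread between the samples.

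The unit of levels is CPM, a count divided by the library total, with 1 set of TMM scaling factors over all 64 libraries. They compare a gene between samples. Levels of different genes are compared only as TPM, the transcript abundance after accounting for length, within a library. The order of tissues is that of CPM and can differ in TPM. Wild-type lung was 3rd of 7 tissues in mean CPM for Pecam1 but lowest in mean TPM, at 12.2 ± 4.79 (SD, n = 6). Kdr was highest in lung in mean CPM, but its mean TPM was 10.7 in lung and 21.2 in gut. Without the 2 lungs named in the next paragraph, Kdr was at 13.97 TPM in lung, still below gut. In bulk tissue, fewer cells of a type and less RNA per cell cannot be told apart. Positions are those of mm10 (GRCm38).

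Libraries held 8391553 to 31793440 counts assigned to genes. Mitochondrial transcripts took 11.3% to 14.1% of the counts in 10 of the 12 lungs, 0.362% in the wild-type lung E5420-07 and 1.54% in the wild-type lung E5420-09. In libraries of the other tissues they took 0.387% (gut A43) to 3.65% (heart A6), so that these 10 lungs lay above every other library. In E5420-09 the 10 most abundant genes held 90.1% of the counts. Its TMM factor was 0.124, and its levels of the followed genes rest on 11 (Nfatc1) to 133 (Cdh5) counts. E5420-07 and E5420-09 stand apart from the other 10 lungs, and results that rest on them are also given without them. The lungs have codes of another form than the other samples, so that tissue and preparation cannot be told apart there. The labelled hearts held 9826 to 38450 CPM of 8 cardiomyocyte genes, against at most 331 in any other library. The lowest of these hearts, the homozygous B5 heart A21, also held 440.3 CPM of face genes and 464.1 CPM of neural genes, above every other heart. The gut samples held 4357 to 7027 CPM of 6 liver genes.

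Start-site windows from RefSeq (GRCm38.p6) were read for 7 of the 10 genes, 9 windows in all since Erg has 3. Nfatc1 was left out of this reading, and no window was read for Pecam1 and Cdh5, so the motif tallies do not cover them. The 4 shown here belong to genes with contrasting tissue patterns in CPM: Tek and Emcn were highest in heart by several fold, and Kdr and Flt1 were as high or higher in lung. Each is the sequence upstream of the start, 5′ to 3′ on the strand of the gene, at chr4:94739039-94739288 (+) for Tek, chr3:137340828-137341066 (+) for Emcn, chr5:75978459-75978705 (−) for Kdr and chr5:147726012-147726261 (−) for Flt1. Capitals mark GGAA, the core bound by ETS factors such as Erg, on either strand (GGAA or TTCC).
Tek: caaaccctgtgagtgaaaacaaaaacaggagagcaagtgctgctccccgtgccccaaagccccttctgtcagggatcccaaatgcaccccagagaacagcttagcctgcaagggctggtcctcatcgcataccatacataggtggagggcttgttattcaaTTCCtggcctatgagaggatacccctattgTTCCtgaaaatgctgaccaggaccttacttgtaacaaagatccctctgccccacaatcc
Emcn: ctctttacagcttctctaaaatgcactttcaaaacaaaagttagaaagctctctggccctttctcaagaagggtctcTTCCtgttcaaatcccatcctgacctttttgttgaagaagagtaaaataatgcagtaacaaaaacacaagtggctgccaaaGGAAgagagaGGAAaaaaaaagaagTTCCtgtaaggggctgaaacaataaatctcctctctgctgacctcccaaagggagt
Kdr: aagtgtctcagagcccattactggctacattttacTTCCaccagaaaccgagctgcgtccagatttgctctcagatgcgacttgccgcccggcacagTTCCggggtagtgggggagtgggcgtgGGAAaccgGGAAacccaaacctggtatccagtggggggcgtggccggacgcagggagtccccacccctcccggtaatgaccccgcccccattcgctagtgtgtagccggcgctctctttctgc
Flt1: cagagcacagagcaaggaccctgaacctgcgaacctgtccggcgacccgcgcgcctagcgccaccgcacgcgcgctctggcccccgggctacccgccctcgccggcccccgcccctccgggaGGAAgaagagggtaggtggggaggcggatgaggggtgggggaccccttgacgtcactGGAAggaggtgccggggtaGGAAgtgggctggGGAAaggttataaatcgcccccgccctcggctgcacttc
These stretches hold 2 matches for Tek and 4 each for Emcn, Kdr and Flt1. The core is common. Of 32851 windows of 300 bases, 96% held GGAA on either strand, as did those of 6 of these 7 genes, all but Npr3. The longer AGGAAG, which contains the core, was in 35.4% of all windows and in those of Emcn, Flt1 and Tie1, and in 1 of the 3 of Erg. The KLF motif CCACCC was in 31.5% of all windows and in those of Flt1, Kdr and Tie1. The GATA motif AGATAA was in 11.2% of all windows and in that of Tek and 1 of Erg. The SOX motif CATTGT was in 12.6% of all windows and in 1 window of Erg, and TATAAA in 13.6% of all windows, in that of Flt1 and in 1 of Erg. All were searched on both strands. A match is a description of the letters, and binding was not measured.

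Pecam1 (chr11:106654217-106750628, −) encodes the adhesion protein CD31 and Cdh5 (chr8:104101625-104144511, +) encodes VE-cadherin, the cadherin of endothelial junctions. Pecam1 in wild-type hearts ran from 102.1 through a median of 124 to 144.5 CPM. Wild-type lungs ran from 54.6 through 69.95 to 74.2 CPM and wild-type faces from 37.9 through 43.5 to 54.8 CPM. The hearts lay above every other tissue without overlap. Pecam1 was 71.1 and 62.4 CPM in the 2 wild-type guts, 59.03 and 53.3 in the neural tubes, 35.3 and 24.03 in the forebrains and 33.8 and 24.03 in the midbrains. Gut, lung, neural tube and face overlapped in turn, and the face lay above both brain tissues.

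For Cdh5, wild-type hearts ran from 129.2 through 156 to 178.1 CPM, lungs from 78.95 through 95.9 to 152.6, and faces from 62.7 through 64.9 to 80.7. The 2 highest lungs were E5420-07 (152.6 CPM) and E5420-09 (128.2 CPM), and without them the lungs did not reach the hearts. Guts held 96.5 and 94.8 CPM, neural tubes 82.1 and 65.7, forebrains 53.7 and 38.1 and midbrains 57.01 and 31.5. The neural tubes overlapped the faces, and the 2 brain tissues overlapped each other and lay below the faces.

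Kdr (chr5:75932827-75978458, −) encodes VEGFR2, the main signalling receptor for VEGF-A, and Flt1 (chr5:147561604-147726011, −) encodes VEGFR1, which binds VEGF-A tightly and limits its supply to VEGFR2 in the embryo. Kdr did not have its highest level in the heart. Wild-type lungs ran from 73.7 through 109 to 122.5 CPM, hearts from 47.6 through 70.9 to 104.1 and faces from 40.5 through 47.4 to 54.2. Guts held 77.8 and 69.8 CPM, neural tubes 64.4 and 49.2, forebrains 59.9 and 43.3 and midbrains 42.9 and 39.01. Every tissue overlapped the next in the order lung, gut, heart, neural tube, forebrain, face and midbrain, and the range of Kdr over all 64 libraries was 4.80-fold, the narrowest of the 10 genes. The overlap of lung with gut came from E5420-07 at 73.7 CPM, and without it and E5420-09 the lungs (101.8 to 114.1 CPM) lay above the guts.

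Flt1 was the lowest in TPM of the 10 genes in the wild-type hearts, at 5.32 ± 2.29 TPM (SD, n = 8). In CPM, wild-type lungs ran from 23.9 through 30.2 to 46.3, hearts from 22.6 through 31.9 to 46.7 and faces from 12.3 through 15.3 to 20.2. Guts held 18.2 and 23.3 CPM, neural tubes 17.01 and 14.2, forebrains 16.4 and 13.1 and midbrains 14.4 and 11.3. Lung and heart overlapped. No neighbouring pair in the order of tissues was separate with all lungs, while without E5420-07 and E5420-09 the lungs (28.07 to 38.9 CPM) lay above the guts.

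Tie1 (chr4:118471191-118490061, −) encodes a receptor with no well-defined ligand of its own, and Tek (chr4:94739289-94874976, +) encodes Tie2, the angiopoietin receptor. Tie1 in wild-type hearts ran from 104.7 through 155 to 181.8 CPM, in lungs from 44.4 through 53.9 to 162.7 and in faces from 26.4 through 30.3 to 36.96. The highest lung was E5420-07, and the other 5 lungs were at most 59.4 CPM, below every heart. Tie1 was 62.7 and 53.9 CPM in the guts, 42.2 and 38.6 in the neural tubes, 30.7 and 21.5 in the forebrains and 28.4 and 21.7 in the midbrains. Neural tubes lay below the guts and above the faces without overlap.

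Tek was separate in the heart. Wild-type hearts ran from 92.2 through 106 to 137.3 CPM, lungs from 20.4 through 35.1 to 46.4 and faces from 11.4 through 13.5 to 17.4. No heart came near the highest lung. Guts held 35.9 and 28.1 CPM, neural tubes 14.9 and 14.4, forebrains 20.7 and 13.4 and midbrains 17.6 and 8.89, all overlapping the faces except the guts, which lay with the lungs.

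Erg (chr16:95359169-95586593, −) encodes an ETS transcription factor of endothelial cells. Wild-type lungs ran from 12.6 through 19.3 to 33.8 CPM, hearts from 12.7 through 18.7 to 24.2, and faces from 4.82 through 5.74 to 9.04. The 2 highest lungs were E5420-09 (33.8 CPM, from 35 counts) and E5420-07 (26.04 CPM). Neural tubes held 14.5 and 12 CPM and overlapped heart and lung, while guts (5.24 and 7.62), forebrains (7.38 and 5.10) and midbrains (5.93 and 3.03) lay in the range of the face or below it.

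Emcn (chr3:137341067-137432185, +) encodes endomucin, a sialoglycoprotein of the surface of venous, capillary and endocardial endothelium. Wild-type hearts ran from 43.1 through 65.1 to 99.8 CPM, lungs from 5.70 through 21.8 to 23.7 and faces from 11.2 through 14.8 to 15.9. The lowest lung was E5420-07, and the other 5 were at least 19.7 CPM. The heart was separate from all other tissues. Guts held 19.7 and 11.3 CPM, neural tubes 16.2 and 18.6, forebrains 10.6 and 8.77 and midbrains 10.4 and 5.83.

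Nfatc1 (chr18:80606205-80713071, −) encodes a calcineurin-regulated transcription factor that marks the endocardium and is needed for valve formation, and it is also active in cell types outside the vessels. Wild-type hearts ran from 37.1 through 45.0 to 60.8 CPM, faces from 12.8 through 14.7 to 26.5 and lungs from 4.82 through 5.53 to 14.6. Nfatc1 was the only one of the 10 genes with the face second in the order of tissues, and the faces lay above the guts (9.46 and 10.1 CPM) without overlap. The lungs at 14.6 and 10.6 CPM were E5420-07 and E5420-09, the latter from 11 counts, and the other 4 were at most 5.69 CPM. Neural tubes held 8.72 and 4.72 CPM, midbrains 6.16 and 5.11 and forebrains 4.26 and 3.97.

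Npr3 (chr15:11839896-11907287, −) encodes the clearance receptor for natriuretic peptides, found in endocardium and in other cell types. Wild-type hearts ran from 60.6 through 95.6 to 121.5 CPM, lungs from 55.7 through 83.3 to 105.3 and faces from 20.1 through 21.9 to 31.8. Heart and lung overlapped over most of their ranges and lay above all other tissues in CPM. In mean TPM lung was at 6.97 and gut at 8.19, and lung without E5420-07 and E5420-09 was at 9.08. Guts held 33.4 and 33.5 CPM, neural tubes 29.3 and 25.9, midbrains 16.6 and 13.2 and forebrains 13.8 and 13.5.

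**Figure D1:**
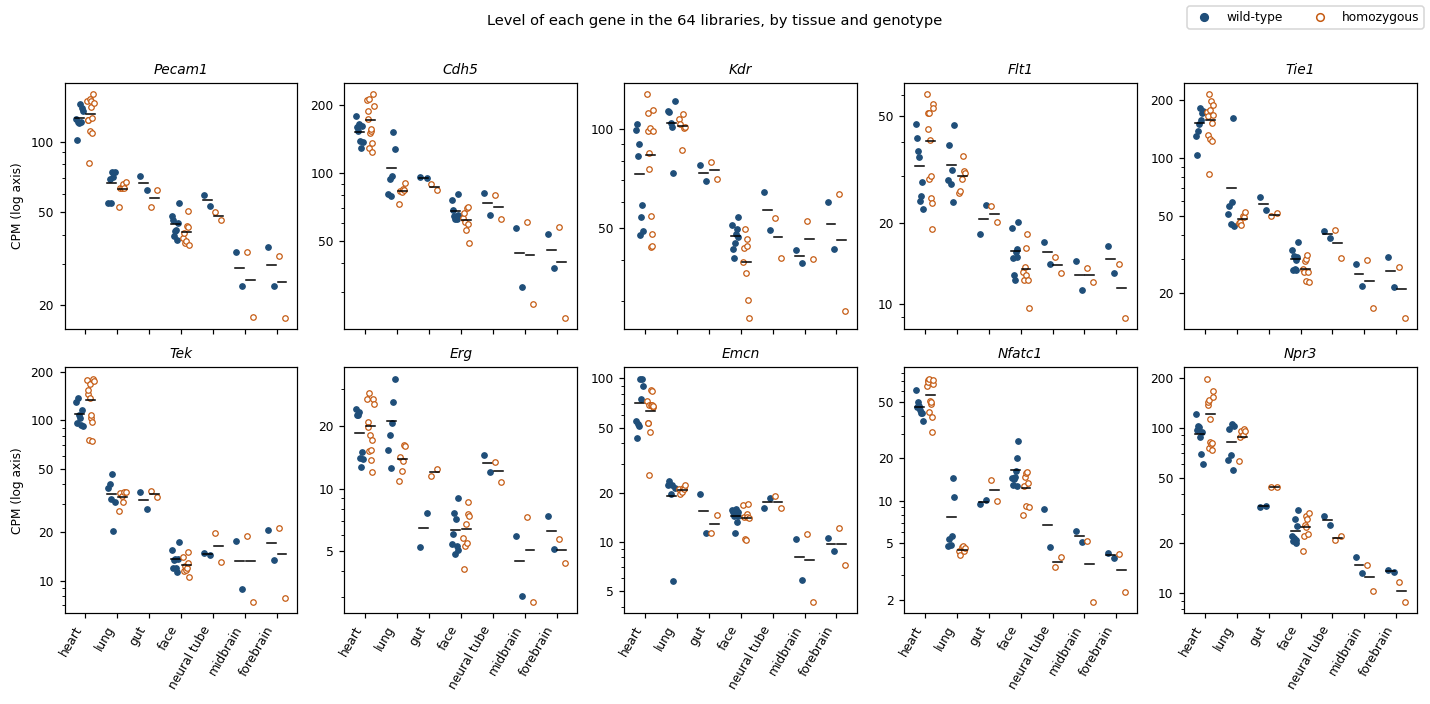
Level of each of the 10 genes in all 64 libraries, in TMM-scaled CPM on a log axis, by tissue, with filled points for wild-type and open points for homozygous samples and a black bar at the mean. Tek hearts sit at 74.8 CPM or more, while no other tissue passes 46.4 CPM, whereas Kdr spans only 4.80-fold over all libraries.

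In homozygous samples the heart had the highest mean of 9 genes, all but Kdr (102 CPM in lung and 83.7 in heart). Among wild-type samples it had the highest mean CPM of 7, and lung the highest of Kdr, Flt1 and Erg. Without lungs E5420-07 and E5420-09, wild-type lung was highest in mean CPM for Kdr alone. The order differed in mean TPM, where wild-type lung was the lowest of 7 tissues for Kdr (10.7) and Flt1 (3.20). Erg was at 4.96 TPM in lung and 10.3 TPM in neural tube. Without those 2 lungs, lung was at 13.97 TPM for Kdr, 3.85 for Flt1 and 5.6 for Erg. Neighbouring means of Flt1 (32.7 CPM in heart and 32.95 in lung) and Erg (18.5 in heart and 21.1 in lung) did not differ beyond their spread.

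Within a library, and per length, the mix of the genes differed between tissues. Relative to Cdh5 in the same wild-type library, Emcn was at a mean TPM ratio of 1.31 in heart, 0.571 in face and 0.513 in lung. The heart value combines 1.81 in B2 with 0.783 in B3 and 0.860 in B5, and lung without E5420-07 and E5420-09 was at 0.644, above the face. Tek was at 0.632 in heart and 0.178 in face, and Tie1 at 0.988 in heart and 0.433 in face. Kdr ran the other way, at 0.312 in heart, 0.713 in lung (0.830 without those lungs) and 0.740 in forebrain. Nfatc1 was at 0.260 in heart, 0.208 in face and 0.0599 in lung, and Npr3 at 0.334 in heart and 0.465 in lung. Over the 8 wild-type hearts Emcn was at 49.7 ± 12.2 TPM (SD, n = 8), Pecam1 at 41.6 ± 3.49 and Cdh5 at 40.9 ± 10.4, and these 3 overlap within their SD. Their order depended on the line. Emcn was above the other 2 in the B2 hearts, at 52 to 67.9 TPM, and below both in those of B3 and B5, at 35.6 to 43.6 TPM.

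Tissue was then tested within lines. Hearts and faces came from B3 and B5, with line as a term, and 60.3% of all genes tested were called there (30.1% higher in heart), a call being an adjusted p under 0.05. All 10 genes were higher in heart, and no heart overlapped a face, though the share of all genes without overlap was not counted. Tek, the angiopoietin receptor, was 131.2, 96.2, 137.3 and 107.9 CPM in the hearts and 15.6, 11.99, 13.4 and 13.7 CPM in the faces. The log2 fold change of Tek was 3.09 (SE 0.138, edgeR adjusted p = 1.72e-07), the largest of the 10. Npr3 followed at 2.17, Tie1 at 2.14, Erg at 1.94, Emcn at 1.83 and Nfatc1 at 1.82. The smallest difference was that of Kdr, 1.05 (95% interval 0.86 to 1.23), with Cdh5 at 1.25, Pecam1 at 1.404 and Flt1 at 1.43. The median of the 10 was 1.82, against −0.03 over all genes tested.

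Lungs and hearts of wild-type B2 embryos were compared directly, with 64.1% of all genes called (33.8% higher in lung and 30.3% lower). Of the 10 genes, 5 were lower in lung and 1 was higher. The lower ones were Nfatc1 (log2 fold change −2.48, SE 0.310), Emcn (−2.24), Tek (−1.52), Tie1 (−1.29) and Pecam1 (−1.03), all at an edgeR adjusted p of 0.00554 or less. Kdr was higher by 1.01 (SE 0.162, adjusted p = 0.000213). Its B2 hearts held 47.6, 53.9, 58.98 and 48.9 CPM, and every lung was above them. Wild-type hearts of other lines lay within the range of these lungs (73.7 to 122.5 CPM), at 99.8 and 104.1 CPM in B3 and 82.8 and 90.3 in B5. Cdh5 (−0.43, adjusted p = 0.0644), Erg (0.56, adjusted p = 0.0608), Flt1 (0.37, 95% interval −0.04 to 0.78) and Npr3 (0.08, −0.40 to 0.56) were not called. Without lungs E5420-07 and E5420-09, where 83.2% of all genes were called, Cdh5 was called as lower (−0.66) and Flt1 as higher (0.36), and Erg and Npr3 were still not called.

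Guts and midbrains of wild-type B4 embryos differed in 50.7% of all genes, 26.6% higher and 24.1% lower in gut. Of the 10 genes, 8 were higher in gut. Tek was higher by 1.27, Tie1 by 1.22, Pecam1 by 1.204, Npr3 by 1.16, Cdh5 by 1.11, Kdr by 0.84, Nfatc1 by 0.80 and Flt1 by 0.69 on the log2 scale. Emcn (0.94, edgeR adjusted p = 0.0679) and Erg (0.53, adjusted p = 0.279) were not called, and Erg overlapped. The midbrain A40 held less of these genes than A38, at 8.89 against 17.6 CPM for Tek and 31.5 against 57.01 CPM for Cdh5.

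Forebrains and neural tubes of wild-type B8 embryos differed in 33.3% of all genes, 15% higher and 18.3% lower in forebrain. Of the 10 genes, 6 were lower in forebrain: Erg (−1.12), Npr3 (−1.05), Pecam1 (−0.96), Emcn (−0.88), Cdh5 (−0.72) and Tie1 (−0.67). Kdr (−0.18), Flt1 (−0.11), Tek (0.19) and Nfatc1 (−0.74, edgeR adjusted p = 0.108) were not called. Npr3 had the smallest adjusted p (0.00117), with 13.8 and 13.5 CPM in forebrain and 29.3 and 25.9 CPM in neural tube. In the samples labelled homozygous the same contrast called 2 of the 10 and 10.9% of all genes.

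Over all 30 wild-type libraries, heart against the mean of the other 6 tissues called 64.4% of all genes (33.8% higher), and all 10 genes were higher in heart. Nfatc1 was higher by 2.61, Tek by 2.52 and Emcn by 2.41, and Kdr by 0.30 (SE 0.127, edgeR adjusted p = 0.0381). Kdr was not called with all low genes kept, nor when any 1 of the hearts A14, A16, A23 and A24, the forebrain A32, the neural tube A36, the midbrain A40 or the gut A44 was left out. Its adjusted p ran from 0.00145 to 0.132 over 35 alternatives. Forebrain, midbrain and neural tube against the other tissues called 47.6% of all genes (25.4% lower), and all 10 were lower, from −0.54 for Kdr to −1.50 for Nfatc1. These contrasts reuse the wild-type samples of the within-line comparisons, and tissue is partly tied to line in them.

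**Figure D2:**
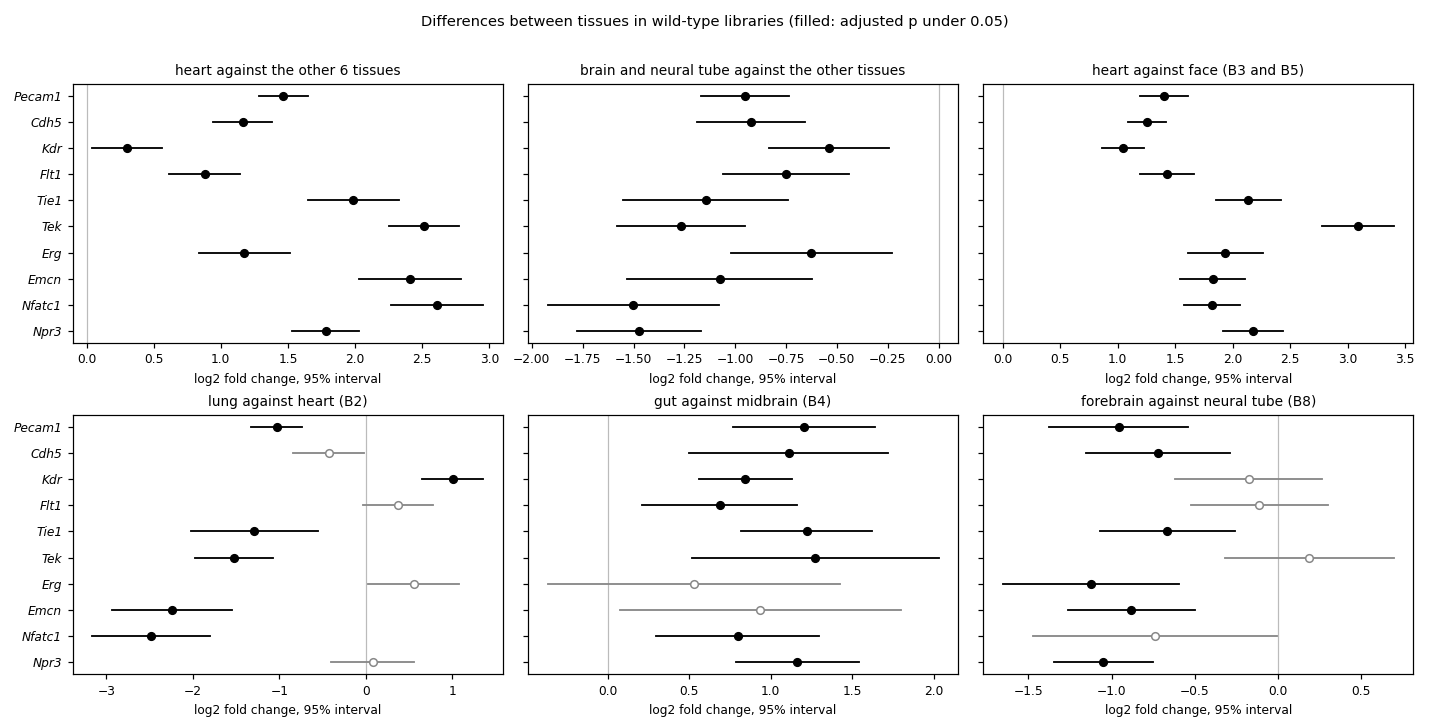
Log2 fold change of each of the 10 genes in 6 tissue contrasts of wild-type samples, with 95% intervals, filled where the edgeR adjusted p is under 0.05. Heart lies above face for all 10, from 1.05 for Kdr to 3.09 for Tek, and in B2 lung lies below heart for Nfatc1 at −2.48 and above it for Kdr at 1.01.

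Other genes tied to vessels or the endocardium were read from fixed lists. In bulk tissue the cells that made these transcripts were not resolved. Of 26 other pan-endothelial genes, 23 were higher and 1 lower in heart than in face, with a median log2 fold change of 1.46, and 4 were higher and 14 lower in lung than in heart, with a median of −0.64. Among the genes with the largest called differences between heart and face were Vwf (2.97), Nos3 (2.73), Ptprb (2.54) and Eng (2.38). Between lung and heart, the endoglin gene Eng (−3.49), Plvap (−2.56) and Ramp2 (−2.54) were lower in lung and the tight-junction gene Cldn5 was higher (2.91). Gut was higher than midbrain for 20 of the 26 and lower for none. Forebrain was lower than neural tube for 9 and higher for 1.

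Of the 10 VEGF and angiopoietin ligands and co-receptors, 8 were higher and 1 lower in heart than in face. They include Angpt1 (2.40), the ligand of Tek, and the co-receptor Nrp1 (1.77). In lung against heart 5 were higher and 4 lower, with Vegfb at −4.00 and Nrp2 at 2.57. Of 9 other endocardial and cushion genes, 5 were higher and 3 lower in heart than in face, with Hapln1 at 3.67 and Cgnl1 at 2.86. None was higher and 6 were lower in lung than in heart, with a median of −2.32. Arterial genes were mixed, with 6 of 9 higher and 3 lower in heart than in face, led by Bmx (4.66) and Gja5 (3.73). Bmx was −5.83 in lung against heart. Of 6 venous and lymphatic genes, 4 were higher in lung than in heart, among them Aplnr (2.42).

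Genes listed for the brain barrier endothelium ran against the 10. Of 6, 5 were higher and none lower in brain and neural tube than in the other tissues (median 1.68). They were led by the thyroid hormone carrier Slco1c1 (3.30), the lipid transporter Mfsd2a (2.202), the efflux pump Abcb1a (1.72) and Foxq1 (1.63), while 22 of the 26 other pan-endothelial genes were lower there (median −0.97), Icam2 by −1.83. In gut against midbrain all 6 barrier genes were lower, with a median of −1.74. Some other cell types moved with the heart. All 8 erythroid genes and 5 of 6 megakaryocyte and platelet genes were higher in heart than in face, and their part in the level of Pecam1, which platelets also carry, was not tested.

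The same tissue also differed between lines. Wild-type B2 hearts were compared with those of B3 and B5, where 62.5% of all genes were called (31.9% higher and 30.6% lower in B2). Of the 10 genes, 3 were higher and 4 lower in B2. Emcn was 99.3, 74.98, 99.8 and 89.4 CPM in the B2 hearts and 55.2, 43.1, 52.5 and 50.9 CPM in those of B3 and B5, without overlap, and its log2 fold change was 0.92 (SE 0.109, edgeR adjusted p = 3.25e-05). Tie1 was higher by 0.46 and Pecam1 by 0.28. Kdr was lower by −0.78 (SE 0.0969), at 47.6 to 58.98 CPM in the B2 hearts against 99.8, 104.1, 82.8 and 90.3 CPM. Erg (−0.66), Flt1 (−0.60) and Npr3 (−0.36) were lower too. Cdh5 (−0.14, 95% interval −0.32 to 0.05), Tek (−0.15, −0.41 to 0.11) and Nfatc1 (−0.23, adjusted p = 0.0617) were not called.

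The summed level of 8 cardiomyocyte genes moved with line as well, at 32210 to 38450 CPM in the B2 wild-type hearts and 13740 to 21720 in those of B3 and B5, and 7 of the 8 were higher in B2 while 6 of 8 erythroid genes were lower. Their part in the differences of the 10 genes was not tested, and line, litter, collection and library preparation cannot be told apart.

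Wild-type faces did not show such a split. Between B6 and B7 on one side and B3 and B5 on the other, 0% of all genes were called by edgeR, none of the 10 by edgeR or DESeq2, and 1 of the 10 was at an unadjusted p under 0.05. This was Nfatc1, at 0.43 (95% interval 0.03 to 0.82), with 16.3, 12.8, 20.3 and 26.5 CPM in B7 and B6 and 13 to 14.9 CPM in B3 and B5.

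**Figure D3:**
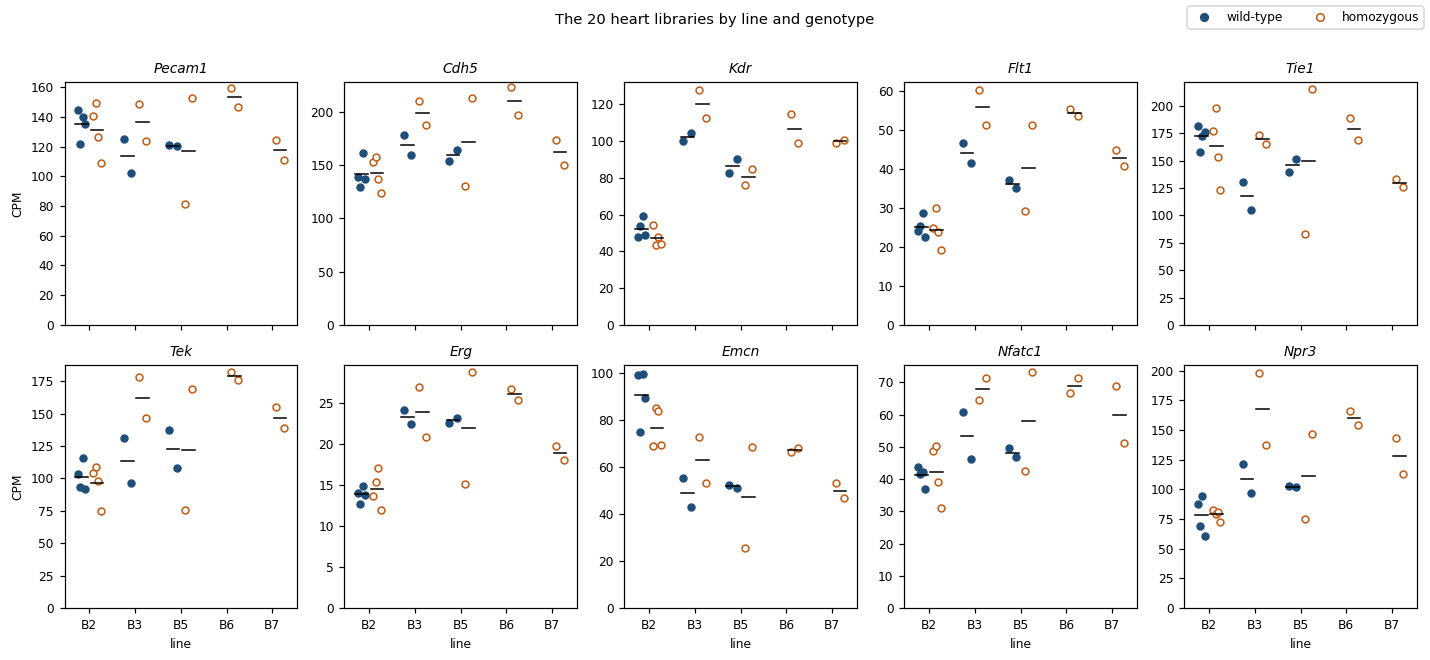
Level of each of the 10 genes in the 20 hearts by line, in TMM-scaled CPM, wild-type filled and homozygous open. Kdr sits at 43.7 to 58.98 CPM in the 8 hearts of B2 and at 75.8 CPM or more in the 12 others. Among wild-type hearts, Emcn sits at 74.98 to 99.8 CPM in B2 and at 43.1 to 55.2 CPM in B3 and B5. Homozygous hearts are not so separate for Emcn, with 68.96 to 85.3 CPM in B2 and 72.99 CPM in the B3 heart A10.

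Homozygous was then compared with wild-type in 14 comparisons of line and tissue, the question the study posed for its boundaries, here asked of genes spread over the genome. Of the 140 tests of the 10 genes, edgeR called 0, and 23 (16.4%) were at an unadjusted p under 0.05. The share of all genes at that p ran from 0.748% in the B5 heart to 16.8% in the B6 heart. DESeq2 called 4, all of them in the B6 heart. The background was as low: edgeR called 0% of all genes in 9 comparisons, 0.0131% in B3 face, 0.00677% in B4 midbrain, 0.0723% in B6 face, 0.0329% in B7 face and 0.0132% in B8 neural tube. The smallest adjusted p of a member was 0.143, that of Tek in the B6 heart. Where groups are said below to lie apart, the share of all genes whose groups lay apart was not counted. With 2 samples a group, groups often lie apart by chance. The 10 genes also varied together within groups, with a median pairwise correlation of 0.52. Counts of members on a side of 0, or at an unadjusted p under 0.05, are thus not counts of separate observations.

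**Figure D4:**
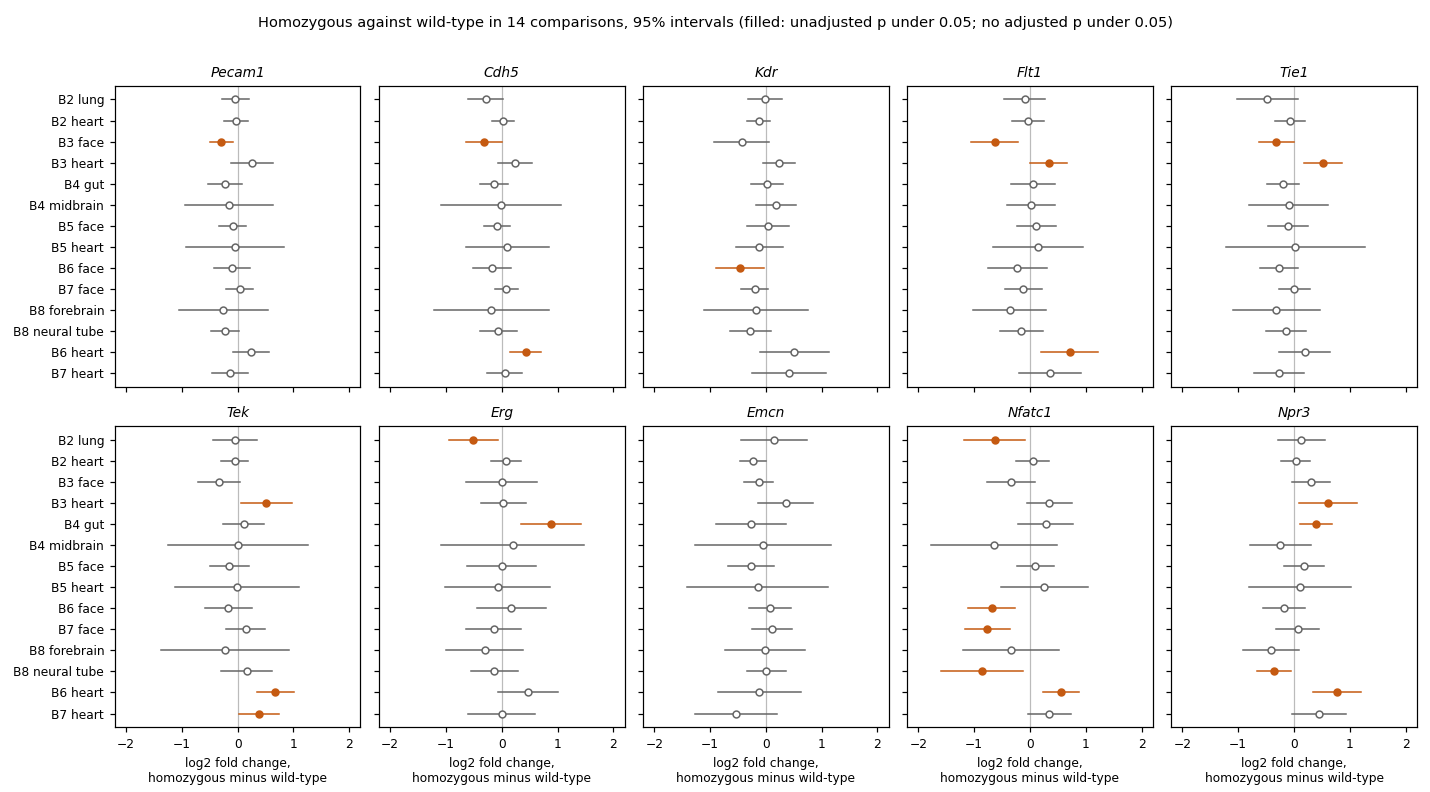
Log2 fold change of homozygous against wild-type tissue for each of the 10 genes in 14 comparisons, with 95% intervals, filled where the unadjusted edgeR p is under 0.05. None of the 140 passes an adjusted p of 0.05, and the smallest adjusted p is 0.143 for Tek in the B6 heart.

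The B2 heart, with 4 samples a group, bounded any difference most closely. Pecam1 (−0.03, 95% interval −0.24 to 0.18), Cdh5 (0.02, −0.17 to 0.22), Tek (−0.06, −0.30 to 0.19) and Nfatc1 (0.05, −0.24 to 0.34) lay near 0. Emcn was the nearest to a difference, at −0.23 (edgeR unadjusted p = 0.0501, adjusted p = 0.867), with 68.96 to 85.3 CPM in homozygous and 74.98 to 99.8 CPM in wild-type hearts, which overlapped. No member was at an unadjusted p under 0.05, against 4.85% of all genes tested.

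In the B2 lung 2 members were at an unadjusted p under 0.05, against 3.19% of all genes. Nfatc1 ran from 4.18 through 4.52 to 4.79 CPM in homozygous and from 4.82 through 5.53 to 14.6 CPM in wild-type lungs, so that the groups did not overlap. Its log2 fold change was −0.63 (edgeR unadjusted p = 0.0260, adjusted p = 0.890), and that of Erg was −0.51 (unadjusted p = 0.0283). Without E5420-07 and E5420-09 the values were −0.19 for Nfatc1 and −0.26 for Erg. Neither was then at an unadjusted p under 0.05, while Tek, at −0.23, was. The lungs fall under 3 embryo codes (E5403, E5406 and E5420), each with both genotypes. With the code as a term Nfatc1 was at −0.40 (edgeR unadjusted p = 0.126) and Erg at −0.34 (unadjusted p = 0.0804), and no member was called.

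The B3 line had the face and the heart on opposite sides of 0. In the face 9 of the 10 genes were below 0 (median −0.32) and in the heart all 10 were above (median 0.34), where the medians over all genes tested were 0.0018 and 0.0030. Since the 10 vary together from sample to sample, these are not 10 separate observations. None was called in either tissue by edgeR or DESeq2, and 4 were at an unadjusted p under 0.05 in each, against 9.49% of all genes in face and 9.47% in heart. In the face, Flt1 was 19.2 and 14.8 CPM in wild-type and 12.4 and 9.65 CPM in homozygous samples, at −0.63 (edgeR unadjusted p = 0.00798, adjusted p = 0.503). Pecam1 was 47.9 and 46.2 CPM against 40.8 and 36.2 (−0.30), Cdh5 75.8 and 68.7 against 66.5 and 49.3 (−0.33), and Tie1 33.4 and 26.4 against 25.6 and 22.7 (−0.31). In each of these 4 genes the homozygous faces lay below the wild-type ones. With all low genes kept, edgeR called Cdh5, Kdr and Flt1 in the face and 1.96% of all genes.

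In the B3 heart Tie1 was 130.4 and 104.7 CPM in wild-type and 173.6 and 165.4 CPM in homozygous samples, at 0.52 (edgeR unadjusted p = 0.00999, adjusted p = 0.524). Npr3 was 121.5 and 96.6 CPM against 198.1 and 137.3 (0.62), Tek 131.2 and 96.2 against 178.1 and 146.6 (0.51) and Flt1 46.7 and 41.6 against 60.3 and 51.4 (0.33). The homozygous hearts lay above the wild-type ones in all 4. Of the 26 other pan-endothelial genes none was called in either tissue, and their medians were −0.21 in face and 0.34 in heart.

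The difference between the effects in heart and face of B3 was itself tested. It was called for 0 of the 10 genes by edgeR and by DESeq2, and for 0.0311% of all genes by edgeR. At an unadjusted p under 0.05 were 6 members, against 9.12% of all genes. The largest differences were Flt1 at 0.97 (95% interval 0.40 to 1.53, adjusted p = 0.526), Tek at 0.85 (0.24 to 1.46) and Tie1 at 0.84 (0.36 to 1.31). Cardiomyocyte genes moved with the heart result, at 13740 and 21720 CPM in the wild-type and 28280 and 25640 in the homozygous hearts, and the wild-type A16 with the lowest sum also held 165.8 CPM of lung genes. By Xist and the Y-linked Ddx3y, the B3 libraries that read as male were A11 and A12, both homozygous, and the wild-type ones all read as female. The part of either in the result was not tested. Without the wild-type heart A14, the difference was called for 2 genes, Tie1 (0.99) and Tek (1.07), and for 4.02% of all genes, where the lone wild-type heart left is assumed to vary like the other groups. Over the 5 lines with both tissues of both genotypes, the 50 tests of such a difference gave 0 calls and 8 at an unadjusted p under 0.05. The other 2 were Erg in B2, −0.59 in lung against heart (3.02% of all genes at that p), and Npr3 in B4, 0.66 in gut against midbrain (4.4%).

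**Figure D5:**
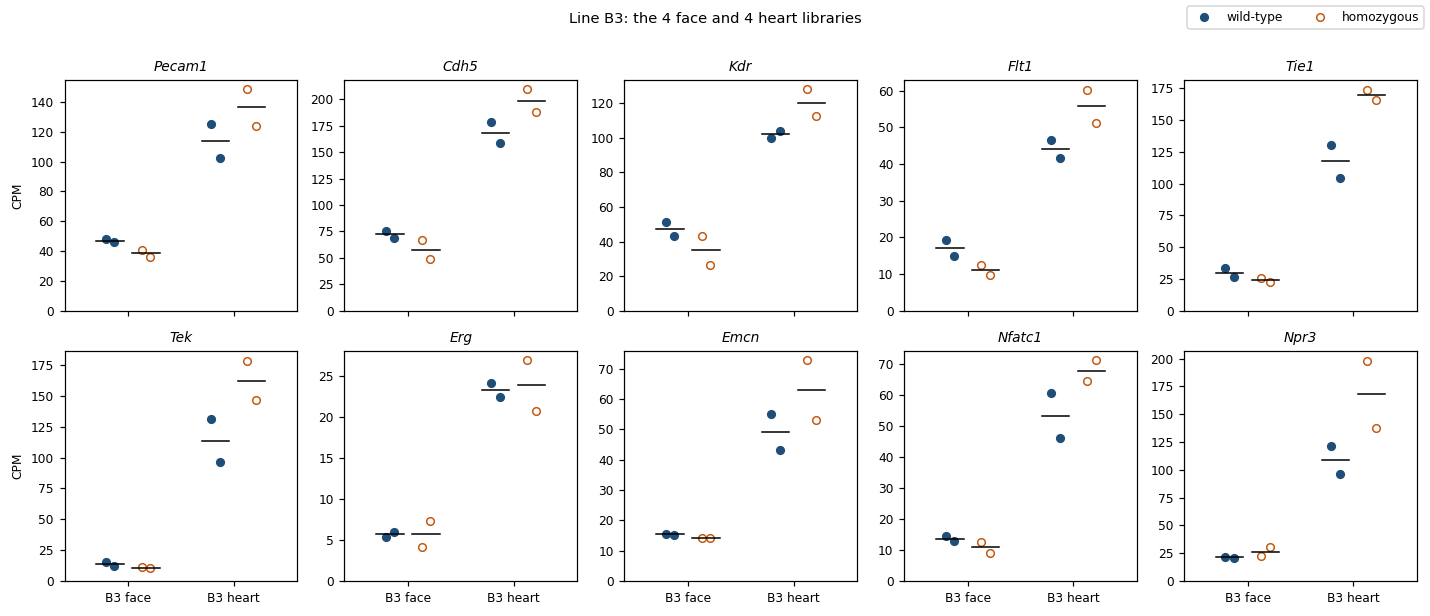
Level of the 10 genes in the 4 faces and 4 hearts of B3, in TMM-scaled CPM, wild-type filled and homozygous open. Tie1 reads 26.4 and 33.4 CPM in wild-type and 22.7 and 25.6 in homozygous faces, and 104.7 and 130.4 in wild-type and 165.4 and 173.6 in homozygous hearts.

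The B6 and B7 hearts were both set against the same 8 wild-type hearts of other lines. In B6, 5 of the 10 genes were at an unadjusted p under 0.05, against 16.8% of all genes. Tek was 182.3 and 175.7 CPM in the B6 hearts, above all 8 wild-type hearts (92.2 to 137.3), at 0.67 (SE 0.151, edgeR unadjusted p = 0.000952, adjusted p = 0.143). Cdh5 was 223.0 and 197.0 CPM (0.43), Nfatc1 66.7 and 71.2 (0.55), Npr3 165.9 and 154.3 (0.77) and Flt1 55.3 and 53.6 (0.71), each above the highest wild-type heart. DESeq2 called Cdh5, Tek, Nfatc1 and Npr3, and 4.35% of all genes. In B7, Tek alone was at an unadjusted p under 0.05, at 155.3 and 138.7 CPM (0.39, adjusted p = 0.506), against 9.57% of all genes.

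The counts moved with the choice of wild-type hearts. For B6, with the wild-type hearts of B2 alone 8 of the 10 and 58% of all genes were called, with those of B5 alone 6 and 14.7%, and with those of B3 alone 0 and 0%. For B7 the hearts of B2 alone gave 8 and 57.5%. Against B2 hearts Emcn was lower in B6 (−0.44) and against B5 hearts it was higher (0.36). Between the homozygous hearts themselves, 5.13% of all genes were called (2.37% higher and 2.76% lower in B6), and all 10 genes were above 0 in B6. Tie1 was called at 0.46 (188.9 and 168.8 against 132.9 and 126.1 CPM, edgeR adjusted p = 0.0390) and Emcn at 0.42 (66.4 and 67.9 against 53.1 and 46.9 CPM, adjusted p = 0.0486), and neither was called without A6 or without A4. Of the 26 other pan-endothelial genes 7 were higher in B6 and none lower. Erythroid genes moved the other way, with 4 of 8 lower in B6 (10060 CPM summed in A6 and 134800 in A4), and their part was not tested.

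The endocardial gene Nfatc1 had the smallest unadjusted p of the 10 in the faces of both B6 and B7, and was called in neither. In B6 it was 20.3 and 26.5 CPM in wild-type and 16.1 and 13.3 in homozygous faces, at −0.69 (edgeR unadjusted p = 0.00532, adjusted p = 0.336). In B7 it was 16.3 and 12.8 CPM against 7.92 and 9.27, at −0.76 (unadjusted p = 0.00268, adjusted p = 0.373). The groups of 2 did not overlap in either line, and the share of all genes without overlap was not counted. Kdr was also at an unadjusted p under 0.05 in the B6 face, at −0.46, with 46.8 and 54.2 CPM against 44.1 and 30.1. The members at an unadjusted p under 0.05 were thus 2 in B6 and 1 in B7, where the shares of all genes were 8.65% and 7.55%. With all low genes kept, edgeR called Nfatc1 in both lines and Kdr in B6, with 2.93% of all genes in B6 and 2.07% in B7. Nfatc1 was also called without the wild-type A27 (1.91% of all genes) or the homozygous A5 (2.54%) of B6, the latter calling Kdr too, and without the homozygous A3 of B7 (4.07%). Each of these leaves 1 sample in a group, which is assumed to vary like the other group.

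In the B4 gut Erg was 5.24 and 7.62 CPM in wild-type and 11.5 and 12.4 in homozygous samples, at 0.88 (edgeR unadjusted p = 0.00531, adjusted p = 0.403). Npr3 was 33.4 and 33.5 CPM against 44.04 and 44 (0.39, adjusted p = 0.521). These were the 2 members at an unadjusted p under 0.05 in that tissue, against 6.90% of all genes, and none was in the B4 midbrain, against 7.25%. By Xist and Ddx3y the B4 libraries that read as female were A37 and A41, both homozygous, and the part of sex was not tested. Erg was called with all low genes kept (2.29% of all genes) and without the wild-type A44 (3.38%), where the wild-type gut left is assumed to vary like the homozygous ones. In the B8 neural tube Nfatc1 was 8.72 and 4.72 CPM in samples labelled wild-type and 3.41 and 4.02 in those labelled homozygous (−0.86, unadjusted p = 0.0257), and Npr3 29.3 and 25.9 against 20.9 and 22.3 (−0.36). Only these 2 members were at an unadjusted p under 0.05 there, against 10% of all genes.

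In the B8 forebrain all 10 genes were below 0 (median −0.28). None was at an unadjusted p under 0.05, against 5.57% of all genes, and the groups overlapped for 9 of the 10. Npr3 was the exception, at 11.7 and 8.85 CPM in the samples labelled homozygous and 13.8 and 13.5 in those labelled wild-type. The deleted stretch holds no gene that would check the B8 genotype labels, so the direction of these values rests on the labels. By Xist and Ddx3y only the B8 libraries A32 and A36, both labelled wild-type, read as male, and the part of sex was not tested. Cdh5 was 57.96 and 23.1 CPM in the samples labelled homozygous and 53.7 and 38.1 in those labelled wild-type, with an interval from −1.21 to 0.84. The library A31 was the lowest of all 64 for Pecam1, Cdh5, Flt1, Tie1 and Npr3, and the midbrain A39 the lowest for Tek, Erg, Emcn and Nfatc1. In the B5 heart the homozygous A21 and A22 were likewise far apart, at 75.4 and 169.3 CPM for Tek, 83.2 and 215.3 for Tie1 and 25.6 and 68.4 for Emcn. The wild-type B5 hearts lay between them, and without A22, Tie1 and Emcn were called as lower in the 1 homozygous heart left, A21, with 5.74% of all genes called. That fit assumes that A21 varies like the wild-type hearts. A21 is the heart with the lowest cardiomyocyte sum and raised face and neural genes, and it held counts of both Xist (3730) and Ddx3y (578). The part of these in the result was not tested. No member was at an unadjusted p under 0.05 in the B5 face or heart, against 3.21% and 0.748% of all genes.

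The 10 genes varied together from sample to sample. Over the 45 pairs, the Pearson correlation of log2(CPM + 1) across 64 libraries had a median of 0.82 and ran from 0.20 to 0.97. After subtracting the mean of each group of line, tissue and genotype, the median was 0.52 and 43 of the 45 were above 0. Without lungs E5420-07 and E5420-09 the median within groups was 0.69 and all 45 were above 0. The points share library, depth and scaling factor, and these are descriptions without a test.

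By the same measure across 64 libraries, the genes most like each member were picked out among 14300. Cdh5 was closest to Pecam1 (0.97), Bcl6b and Plxnd1, and Pecam1 to Fkbp9 (0.98), Myzap and Cdh5. Tie1 was closest to Nos3 (0.98), Mmrn2 and Klhl21, Flt1 to Cd93 (0.96), Ptprb and Hipk3, and Kdr to Adgrf5 (0.95), Cpd and Jcad. Tek was closest to Mical2 (0.97), Cgnl1 and Loxl2, Emcn to Pyurf (0.97), Myzap and Ecscr, and Npr3 to Enpep (0.97), Add3 and Cd93. Nfatc1 was closest to Bmp2 (0.95), Fbln2 and Furin, none of them a member, and Erg had the lowest best match, Svil (0.91), followed by She and Cd93.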

How the data were processed

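RNA-seq of whole embryonic tissues was analysed, and the 23 Hi-C samples were not analysed here. Per the methods, the authors aligned 150 bp read pairs to mm10 with STAR 2.12 and quantified gencode M4 genes with RSEM 1.4.1. The authors deposited expected counts, which are not normalized, and TPM, which RSEM scales by effective length to a constant sum per sample. FPKM was deposited by the authors too and was not used. The kit and strand setting are not given in the sources used here. Annotated genes overlap Cdh5 (Gm29682), Nfatc1 (AC123818.1) and Npr3 (Gm5144), and reads of the overlap cannot be told apart.

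Gene names came from GENCODE M21, which named 42462 of the 43346 Ensembl genes. Entries that are no Ensembl gene took at most 2.19e-05% of the counts and were left out. Expected counts were rounded, filtered with filterByExpr, given TMM factors and tested by the quasi-likelihood method of edgeR 4.0.16 in R 4.3.3 over the whole table, with Benjamini-Hochberg adjustment over all genes tested, and called at an adjusted p under 0.05. Groups came from the labels, and each comparison used its own samples. Intervals are at 95% from the same fit. The members and the 18 gene lists (164 genes, all matched) were chosen with earlier results of these data known. All members are named, with the 3 most alike genes at a mean CPM of at least 1 and up to 4 called genes per list. Other settings tried were RLE factors, DESeq2 1.42.0, the table without the filter, a joint fit over all libraries, sex or embryo code as a term in the lungs, other wild-type hearts and leaving out each sample. Those of the difference between tissues in an effect, and the lungs without E5420-07 and E5420-09 in that test, were chosen after seeing the data. The procedure was tested on simulated data.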

Additional observations from a re-analysis of the deposited data

Results flagged for a closer look

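Sets of 1 gene were searched for a sample far from the others by Dixon's ratio, where chance flags about 1 in 20. A set was a group of 4 or 6 samples, or 8 wild-type hearts, 8 wild-type faces or 8 homozygous faces over lines. Of 70 sets, 4 held such a sample, all in groups of 6 lungs. Among the homozygous B2 lungs, E5403-10 was low for Pecam1, at 52.4 CPM against 63.3 to 67.1 in the other 5, and for Npr3, at 63.1 CPM against 88.2 to 98.0. Among the wild-type B2 lungs, E5420-07 was high for Tie1, at 162.7 CPM against 44.4 to 59.4 in the others, and low for Emcn, at 5.70 CPM against 19.7 to 23.7.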

How the results depend on the processing

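Of the 117 counts of members called under another setting than the main one (leaving out a sample aside), 104 were the same within 1.5 times and 13 were not. The main test called 0 members in each comparison of genotype and 6 for forebrain against neural tube. Without the filter on low counts, 3 members were called in B3 face, 1 in B4 gut, 2 in B6 face, 1 in B7 face and 7 between the homozygous hearts of B6 and B7, where DESeq2 called 4 and the main test 2. For the B6 heart DESeq2 called 4, the joint fit of all 64 libraries 4, the wild-type hearts of B2 alone 8 and those of B5 alone 6, and for the B7 heart the joint fit called 1 and the hearts of B2 alone 8. The samples labelled homozygous in place of wild-type gave 2 for forebrain against neural tube and moved Erg in lung against heart from 0.56 to −0.0693 on the log2 scale, neither value called. Leaving out 1 sample at a time gave 0 to 1 in B4 gut, 0 to 2 in B5 heart and in B6 face, 0 to 1 in B7 face, 0 to 3 between the homozygous hearts of B6 and B7, and 0 to 2 for the difference between heart and face of B3. The cause was not tested. Of 436 fold changes of single members under other settings, 391 kept their direction and their side of the threshold, 39 newly passed it, 5 no longer passed and 1 reversed. No paired analysis was possible because the labels carry no replicate numbers. The 3 embryo codes of the B2 lungs, used as a term, gave 0 calls, as did sex. With 2 samples a group in most comparisons, wide intervals limit what can be seen, as for Cdh5 in B8 forebrain (−1.21 to 0.84).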
